A study of Mus musculus with 2 samples.

Results

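The respiratory chain genes are those that encode the 4 electron transfer complexes (I to IV) and ATP synthase (complex V) of the inner mitochondrial membrane, with some of their assembly factors. Members were chosen by symbol (mt-, Nduf, Sdha to Sdhd, Uqcr, Cox4 to Cox8 and Atp5), and had to reach 200 unique molecular identifiers (UMIs, each a tag on 1 captured RNA molecule) over both libraries. Of 105 symbols that matched, 99 reached the minimum, 13 from the mitochondrial genome and 86 from the nucleus, among 10379 genes at that minimum and 27998 genes in the table. The data are single-cell RNA counts from male mouse E14 embryonic stem cells, labelled as strain C57BL/6 and grown without feeders on gelatin in 2i medium. Both groups came from this 1 line, and neither carried a labelled genetic change. The control received the solvent DMSO for 24 h and the treated cells received Idoxuridine, an iodinated analogue of thymidine, for 24 h. The dose is 10 µM in the treatment label and 10 mM in a protocol field, and this conflict was not settled here. Each group had 1 library, so no difference below has a replicate check, and no test or p-value is given.

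Complexes I and II take electrons from NADH and succinate, complex III passes them through cytochrome c to complex IV, which reduces oxygen, and complex V uses the resulting proton gradient to make ATP. The mitochondrial genome encodes core membrane subunits of complexes I, III, IV and V, and the nucleus encodes all of complex II and all other subunits, so both genomes must supply parts of the same assemblies. Embryonic stem cells hold relatively immature mitochondria and draw much of their ATP from glycolysis, while still running the respiratory chain.

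After 2 and 1 cells with more than 10% mt- UMIs were left out, the DMSO library held 809 cells with a median of 44513 UMIs and the Idoxuridine library 741 cells with a median of 37436. The libraries shared 2 cell barcodes. All 6 embryonic stem cell markers were detected, at 33.5 to 2073 CPM (UMIs scaled to a library total of 1000000) in the DMSO library and from 25.1 to 1620 CPM in the other. Summed, they went from 4297 to 3180 CPM (median log2 ratio -0.41). A list of 16 naive pluripotency genes summed to 6293 and 4497 CPM. Summed markers of fibroblasts were 1.37 and 9.59 CPM, of primitive endoderm 1.15 and 7.23 CPM, and of trophectoderm 11.2 and 35.7 CPM, the last mostly Cdx2 (11.0 and 30.9 CPM), with each other marker of these 3 lists below 5 CPM in both libraries and the fibroblast markers Col1a1 and Col3a1 at 0 UMIs in DMSO. RNAs that stay in the nucleus summed to 3299 CPM in DMSO and 5411 CPM in Idoxuridine. Most of this was Malat1, at 2309 and 4239 CPM, while Gm26917 of the same list went from 144 to 102 CPM. The part of these markers and lists, of the nuclear RNAs and of the difference in depth in the results below was not tested.

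The annotated ends of 4 mitochondrial genes that the results turn on are shown first. The 3′ chemistry counts RNA ends, and an annotated gene end need not be an RNA end, which was not tested. Each stretch is the last 30 bases of the annotated gene in the sense of the message (GENCODE M21, GRCm38). Capitals mark what the DNA encodes of the stop codon.
mt-Nd3 (chrM:9459-9806): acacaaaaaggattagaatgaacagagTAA
mt-Nd4l (chrM:9877-10173): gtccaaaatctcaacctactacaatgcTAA
mt-Nd5 (chrM:11742-13565): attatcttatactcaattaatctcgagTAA
mt-Cytb (chrM:14145-15288): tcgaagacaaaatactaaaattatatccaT
The first 3 carry a whole stop codon, and mt-Cytb ends on the first base of one, which the poly(A) tail is known to complete. The end of mt-Nd4l lies inside mt-Nd4 by 7 bases, mt-Nd5 overlaps mt-Nd6 on the opposite strand by 14 bases, and mt-Atp8 shares 43 bases with mt-Atp6, so counts of these neighbours may not be fully separate.

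The mitochondrial messages together were 26845 CPM in DMSO and 28780 CPM in Idoxuridine, and the 86 nuclear members together were 19093 and 18416 CPM. The mitochondrial sum was thus 0.10 log2 higher (95% counting interval 0.096 to 0.104) and the nuclear sum 0.05 log2 lower (-0.057 to -0.047) in the Idoxuridine library. Intervals of a CPM (exact Poisson) and of a ratio of CPM or a share of UMIs (exact binomial) cover counting error only. That of the pooled difference in balance below is a normal approximation to counting error. Intervals of medians over cells and of shares of cells treat the cells of 1 library as independent. No interval here covers the spread between cultures. The median log2 ratio, Idoxuridine over DMSO, was 0.20 over the mitochondrial and -0.0029 over the nuclear members, beside 0.09 over all genes at the minimum. Scaling by TMM over all genes in place of total UMIs lowers every log2 ratio by 0.21 and turns the mitochondrial median to -0.01. A median is therefore better read against that of all genes. From it the mitochondrial members differed by 0.11 and the nuclear ones by -0.09 under any scaling. Of all 10379 genes at the minimum, 6245 had ratios above 0 (3877 with TMM over all genes). Counts of members above or below 0 are to be read beside these.

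A level was counted as different when it was at least 0.5 log2 apart with Poisson intervals that did not overlap. By this rule 7 of 99 members (7.07%) were higher in Idoxuridine, where 18.8% of all genes were, and 1 member (1.01%) was lower, where 4.22% of all genes were. At 0.25 log2, 21 members (21.2%) were higher beside 31% of all genes, and 12 (12.1%) were lower beside 13.4%. How the members' share of lower levels at 0.25 log2 compared with that of all genes turned with the scaling. It was 28.3% beside 19.7% with TMM, 29.3% beside 20.4% with median of ratios and 37.4% beside 32.6% with TMM over all genes. The split of 7 higher to 1 lower was 5 to 2 with TMM over the genes at the minimum, and 3 to 9 with TMM over all genes, where all genes at the minimum split into 1259 higher and 1260 lower. The members above 0.5 log2 were mt-Nd3, mt-Nd5, mt-Nd4l, Cox7a1, Atp5s, Atp5k and Ndufa3, and the 1 below was Ndufb10. Atp5k and Ndufa3 no longer passed with TMM, with TMM over all genes or with median-of-ratios scaling, and mt-Nd4l and mt-Nd5 no longer passed with TMM over all genes. Ndufb10 no longer passed among cells in the middle range of UMIs (pooled 25th to 75th percentile, -0.48). The ratios of mt-Nd3, Cox7a1 and Atp5s stayed above 0.5 log2 under each scaling and cell selection tried. Whether their intervals also stayed apart in each of these was not checked gene by gene.

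**Figure D1:**
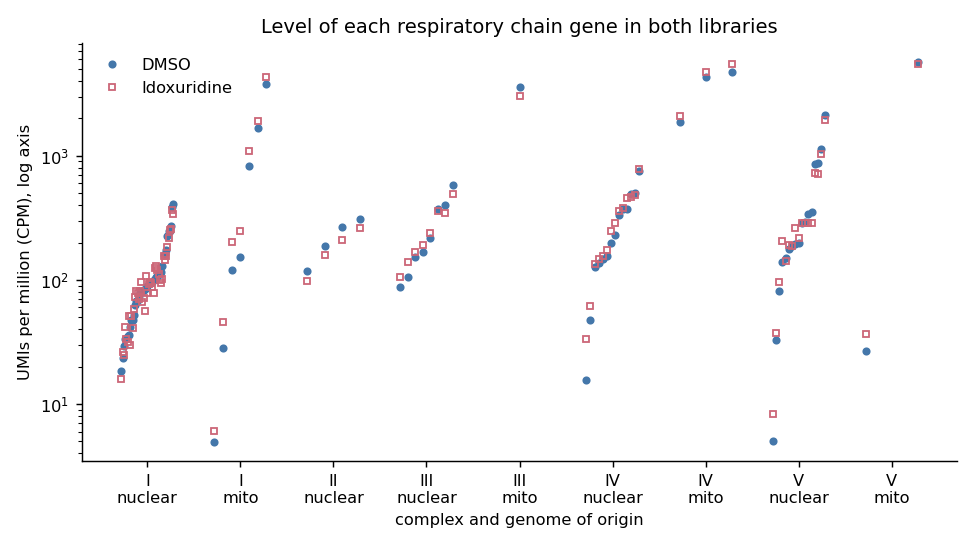
Each point is the level of 1 member in CPM on a log axis, by complex and genome, for the DMSO (filled circles) and Idoxuridine library (open squares). Levels span 4.93 to 5658 CPM in DMSO, and the pairs of points lie close together at every height.

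Levels differed far more between members than between libraries. The 3′ chemistry counts RNA ends, so CPM values are set side by side without a length correction. For the overlapping mitochondrial genes (mt-Atp8 and mt-Atp6, mt-Nd4l and mt-Nd4) a CPM may reflect where tags were assigned. It need not be the level of a separate message, which was not tested. In DMSO the mitochondrial messages ran from 4.93 CPM (mt-Nd6) to 5658 CPM (mt-Atp6), and the nuclear members from 5.00 CPM (Atp5s) to 2138 CPM (Atp5b). The median was 1678 CPM over the mitochondrial and 134 CPM over the nuclear members.

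Complex I, which oxidises NADH and pumps protons, has 7 mitochondrial subunits, and all 7 had log2 ratios above 0, with a median of 0.41. With TMM over all genes 5 were above 0 and mt-Nd1 and mt-Nd4 below it (median 0.20). The message of mt-Nd3 had 121 CPM in DMSO (117.7 to 124.5) and 201 CPM in Idoxuridine (196.1 to 206.2), a ratio of 0.73 log2. That of mt-Nd5 was at 154 CPM in DMSO and 247 CPM in Idoxuridine (0.68 log2, 0.64 to 0.73). The message of mt-Nd4l was at 28.4 and 45.4 CPM (0.68, 0.56 to 0.79). These 3 subunits belong to the membrane arm, through which protons pass, and all 3 were among the mitochondrial genes with lower CPM. The remaining 4 differed less. The message of mt-Nd2 was at 824 and 1094 CPM (0.41). Those of mt-Nd1 were 3780 and 4343 CPM (0.20). For mt-Nd4 they were 1678 and 1896 CPM (0.18). The last, mt-Nd6, is the 1 member encoded on the other strand of the mitochondrial genome and lay just above the UMI minimum (385 UMIs), and its 4.93 and 6.04 CPM did not differ beyond counting error (0.29, -0.0017 to 0.59).

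The 7 nuclear core subunits of complex I, which carry the flavin and the iron-sulfur clusters or line the quinone site, all had log2 ratios below 0, from -0.34 to -0.01. The lowest was Ndufs3, at 129 CPM in DMSO and 102 CPM in Idoxuridine (-0.34, -0.41 to -0.28), followed by Ndufv2, which holds an iron-sulfur cluster, at 228 and 186 CPM (-0.29). Ndufs1, the largest of them, was at 94.96 and 94.25 CPM (-0.01). The median was 0.41 for the mitochondrial and -0.19 for the nuclear core subunits of complex I, and 0.20 and -0.40 with TMM over all genes, where mt-Nd1 and mt-Nd4 fell below 0 beside the nuclear ones.

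The 29 accessory subunits of complex I, which surround the core, were spread on both sides, with a median of 0.02. On the scale of total UMIs 16 were above and 13 below 0, beside 6245 and 4134 of all genes. With TMM over all genes 8 were above and 21 below 0, beside 3877 and 6502 of all genes. Ndufb10, a subunit of the membrane arm, had the lowest ratio of all members, at 85.1 CPM in DMSO and 56.0 CPM in Idoxuridine (-0.60 log2, -0.69 to -0.52). Ndufa12 was at 99.0 and 79.0 CPM (-0.33), Ndufa5 at 81.8 and 66.0 CPM (-0.31) and Ndufs4 at 116 and 93.9 CPM (-0.30). The most abundant nuclear member of the complex in DMSO, Ndufa9, was at 406 and 339 CPM (-0.26). At the upper end Ndufa3 was at 36.0 CPM (34.2 to 37.9) and 51.3 CPM (48.8 to 53.9), 0.51 log2. Of the 7 assembly factors, proteins that help to build the complex and then leave it, 6 had ratios below 0 (median -0.21). Ndufaf6 was the lowest of these, at 41.8 and 30.0 CPM (-0.48, -0.59 to -0.36), and the least abundant, Ndufaf3, was at 18.5 and 15.998 CPM (-0.21, -0.38 to -0.04) from 1241 UMIs.

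Complex II, succinate dehydrogenase, is also an enzyme of the tricarboxylic acid cycle and has no mitochondrially encoded subunit. All 4 of its messages were lower in the Idoxuridine library, within a narrow range of -0.34 to -0.22 log2. The flavoprotein Sdha had 187 CPM in DMSO (182.6 to 191.0) and 160 CPM in Idoxuridine (155.8 to 164.8). The iron-sulfur subunit Sdhb was at 265 and 209 CPM, with the lowest ratio of the 4 (-0.34, -0.39 to -0.30). The membrane anchors Sdhc and Sdhd, which bind ubiquinone, were at 117 and 98.5 CPM and at 311 and 262 CPM (both -0.25). The summed level of the complex went from 880 to 730 CPM (-0.27), while the median of the 4 lay 0.34 log2 below that of all genes.

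Complex III, ubiquinol-cytochrome c reductase, was split by role. Its mitochondrial subunit, cytochrome b (mt-Cytb), had 3585 CPM in DMSO (3567 to 3604) and 3049 CPM in Idoxuridine (3029.6 to 3069), and its ratio of -0.23 was the lowest of the 13 mitochondrial messages. The 3 nuclear core subunits also had ratios below 0. Uqcrc1, a core protein that faces the matrix, was at 582 and 493 CPM (-0.24), and Uqcrfs1, the Rieske iron-sulfur protein, was at 404 and 343 CPM (-0.24). Uqcrc2, the other core protein, did not differ beyond counting error, at 369 and 361 CPM (-0.03, -0.07 to 0.0026). All 5 small subunits had ratios above 0 (2 with TMM over all genes), with a median of 0.18 that becomes -0.03 with that scaling. They ran from Uqcrb, at 217 and 237 CPM (0.13), to Uqcr11, at 106 and 139 CPM (0.39, 0.33 to 0.45), and included the least abundant, Uqcrq, at 87.2 and 105 CPM (0.26).

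Complex IV is cytochrome c oxidase. Its 3 mitochondrial catalytic subunits had log2 ratios between 0.14 and 0.20, none past 0.25, and all 3 turn below 0 with TMM over all genes (median -0.05). The message of mt-Co1, which binds the haems, was at 4773 and 5475 CPM (0.20), that of mt-Co2, which holds the copper centre where cytochrome c docks, at 1875 and 2090.4 CPM (0.16), and that of mt-Co3 at 4337 and 4766 CPM (0.14). Of 11 general nuclear subunits 10 had ratios above 0, beside 6245 of all 10379 genes. With TMM over all genes 3 of the 11 did, beside 3877 of all genes. The median of the 11 was 0.10 and becomes -0.12 with that scaling. The most abundant, Cox4i1, was at 755 and 784 CPM (0.05), and the highest ratio among the 11 was that of Cox6c, at 199 and 248 CPM (0.32). Ndufa4, named for complex I but a subunit of complex IV, was at 372 and 457 CPM (0.30).

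Complex V, ATP synthase, consists of the catalytic F1 part and a stalk and membrane part. Of 5 nuclear F1 subunits 4 were lower in Idoxuridine. The catalytic beta subunit Atp5b, the most abundant nuclear member, had 2138 CPM in DMSO (2124 to 2152) and 1926 CPM in Idoxuridine (1910.1 to 1941), a ratio of -0.15. Atp5c1, the rotating gamma subunit, was at 875 and 720 CPM (-0.28), and Atp5d, the delta subunit beside it, at 356 and 289 CPM (-0.30). The exception was the small epsilon subunit Atp5e, at 81.6 and 96.9 CPM (0.25). The 10 nuclear stalk and membrane subunits were spread from Atp5o, which joins F1 to the stalk (342 and 290 CPM, -0.24), to Atp5k, the small e subunit of the membrane part, at 140 CPM (135.9 to 143.2) and 206 CPM (200.8 to 211.1), 0.56 log2. The g subunit Atp5l, which lies beside e where synthase dimers meet, was at 194 and 261 CPM (0.42). Of the mitochondrial subunits mt-Atp6, which forms the proton channel, was at 5658 and 5531 CPM (-0.03) and mt-Atp8 at 27.0 and 36.9 CPM (0.45). Atp5s, a protein named as a coupling factor, rested on 459 UMIs in all, with 5.00 CPM in DMSO (4.34 to 5.74) and 8.38 CPM in Idoxuridine (7.38 to 9.47), a ratio of 0.74.

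**Figure D2:**
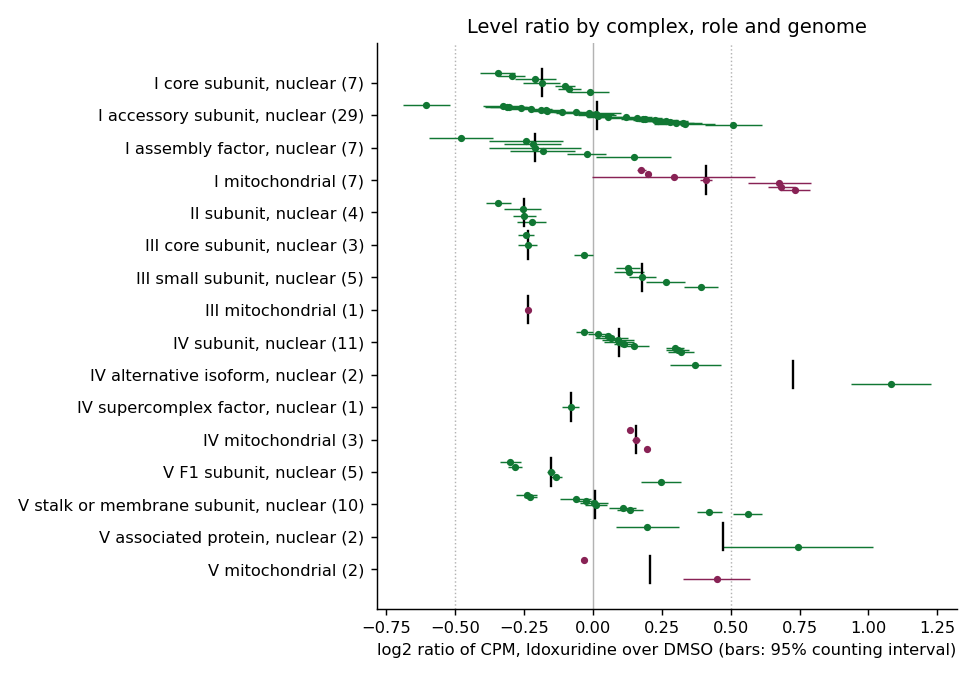
Each point is the log2 ratio of CPM of 1 member with its 95% counting interval, by complex, role and genome (green nuclear, purple mitochondrial), black strokes are medians and dotted lines mark 0.5 in each direction. Nuclear core subunits of complexes I and III and all 4 subunits of complex II lie below 0. The 5 small subunits of complex III and the 7 mitochondrial subunits of complex I lie above it, of which 2 and 5 stay there with TMM over all genes.

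Across complexes I, III and V, 14 of 15 nuclear core and F1 subunits had ratios below 0 (median -0.19, which is 0.27 below all genes). The 34 small and accessory subunits of complexes I and III had a median of 0.09, at that of all genes. Of the 34, 21 were above and 13 below 0, beside 6245 above and 4134 below 0 of all genes. The 10 stalk and membrane subunits of complex V lay between, with a median of 0.01, which is 0.08 below all genes, and 6 above and 4 below 0. The differences between these medians do not depend on the scaling, since a scaling shifts all genes alike, but the sides do, and with TMM over all genes 10 of the 34 and 2 of the 10 were above 0.

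The contrast went with transcript length, a relation looked for after these values were seen. Over the 86 nuclear members Spearman's rho between log2 ratio and the median length of a gene's annotated coding transcripts was -0.61. It is a description across genes, which are not independent. The median length weights all annotated coding transcripts alike, and which of them these cells express was not tested. It is 651 bases for the core subunit Ndufs1 and 2413 for the accessory subunit Ndufb2, so short and long here follow the annotation. The 28 shortest (median 530.5 bases) had a median log2 ratio of 0.23, and the 28 longest (median 1209 bases) one of -0.17. Within the 53 members at 100 CPM or more in DMSO rho was -0.62. Over the 10151 nuclear genes at the minimum that had an annotated coding length it was 0.15, and over the 1908 of them at 100 CPM or more 0.05. The 10151 are longer than the members, with a median of 924 bases over their 3383 shortest and 3974 over their 3383 longest. Whether other genes of the members' lengths follow the same order was not tested. Messages of ribosomal protein genes, which are also short and abundant, had a median of 3046.5 UMIs per cell in DMSO and 3306 in Idoxuridine at a fixed depth of 24000 UMIs. Whether length itself or the roles of short subunits underlies the order cannot be told apart here.

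**Figure D3:**
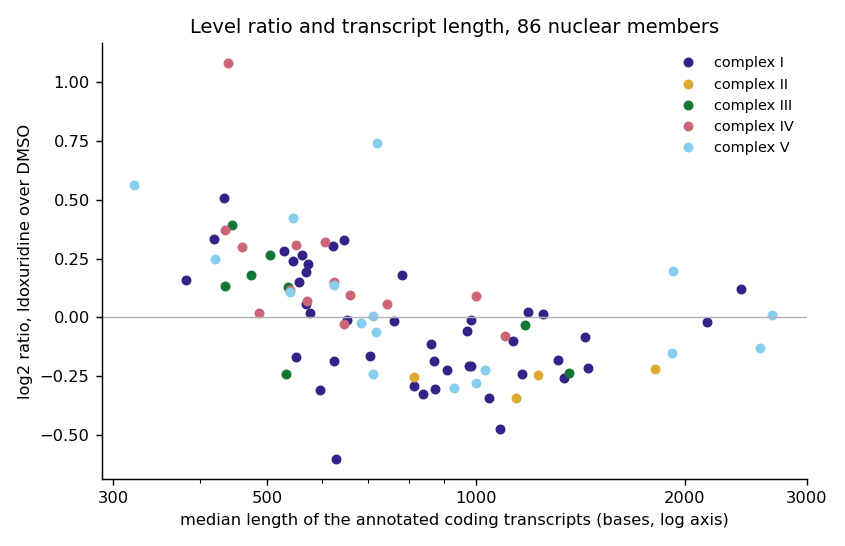
Each point is 1 nuclear member, with the median length of its annotated coding transcripts in bases (log axis) against its log2 ratio of CPM, coloured by complex. On the scale of total UMIs short members lie mostly above 0 and long ones mostly below, with complex II among the long ones and Cox7a1 at the top.

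Several complex IV subunits have alternative genes that replace the general form in muscle, lung or testis, and in both libraries these forms were the minor part of their sets. Cox7a1, the heart and muscle form of subunit 7a, had the highest ratio of all members, with 15.7 CPM in DMSO (14.5 to 17.0) and 33.3 CPM in Idoxuridine (31.3 to 35.4), 1.08 log2. It went from 2.41% to 5.10% of the subunit 7a set, whose other members are the general Cox7a2 (147 and 157 CPM) and the supercomplex factor Cox7a2l (489 and 463 CPM). At 24000 UMIs per cell, 28.1% of DMSO cells (24.9 to 31.4) and 50.1% of Idoxuridine cells (46.1 to 54.0) had a UMI of Cox7a1, beside 47.0% and 64.2% without thinning. No cell type that should lack the gene was present to set a background level. Cox6b2, the testis form of subunit 6b, was at 47.8 and 61.9 CPM (0.37, 0.28 to 0.46). It went from 11.4% to 14.1% of its set, beside Cox6b1 at 371 and 376 CPM (0.02). Over the cell selections and the mean of per-cell CPM tried, the ratio of Cox6b2 ran from 0.21 to 0.37. A UMI of Cox6b2 was in 63.7% of DMSO and 71.4% of Idoxuridine cells at 24000 UMIs, and in 84.1% and 83.5% without thinning.

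The forms below the UMI minimum are described without being members. Just below it, Cox7b2, a testis form, had 51 UMIs in DMSO (1.25 CPM, 0.93 to 1.64) and 125 in Idoxuridine (4.11 CPM, 3.42 to 4.89), beside Cox7b at 138 and 147 CPM. Ndufa4l2, a relative of Ndufa4 that is known to be induced by hypoxia, had 15 and 61 UMIs (0.37 and 2.00 CPM), under 1% of its set in both libraries. Cox4i2, the lung form of subunit 4, had 6 and 21 UMIs, and made up 0.019% and 0.088% of its set. Cox8c had 3 and 5 UMIs and Cox6a2 had 1 and 2, both too few to compare, beside Cox8a at 230 and 285 CPM and Cox6a1 at 127 and 134 CPM. Cox8b had 0 UMIs in both libraries, where the limit that a count of 0 allows (3 counts, a one-sided limit and lower than the upper end of the intervals above) is 0.0736 CPM in DMSO and 0.0986 CPM in Idoxuridine. The 3 genes for the identical ring subunit c of ATP synthase kept their shares within 1 percentage point, with Atp5g1 at 39.2% and 40.0%, Atp5g2 at 40.4% and 40.2% and Atp5g3 at 20.4% and 19.8% of their sum.

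The make-up of the mitochondrial messages differed between the libraries beyond the difference in their sum. This compares shares within the mitochondrial UMIs of each library, so no scaling enters. The share of mt-Cytb was 13.4% (13.29 to 13.42) in DMSO and 10.6% (10.53 to 10.66) in Idoxuridine, and that of mt-Atp6 was 21.1% and 19.2%. The share of mt-Co1 was 17.8% and 19.0%, that of mt-Nd1 14.1% and 15.1%, and that of mt-Nd2 3.07% and 3.80%. The shares of mt-Nd3 (0.451% and 0.699%), mt-Nd5 (0.572% and 0.858%) and mt-Nd4l (0.106% and 0.158%) were all higher in Idoxuridine. Only mt-Cytb and mt-Atp6, of 13, had a lower share there.

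**Figure D4:**
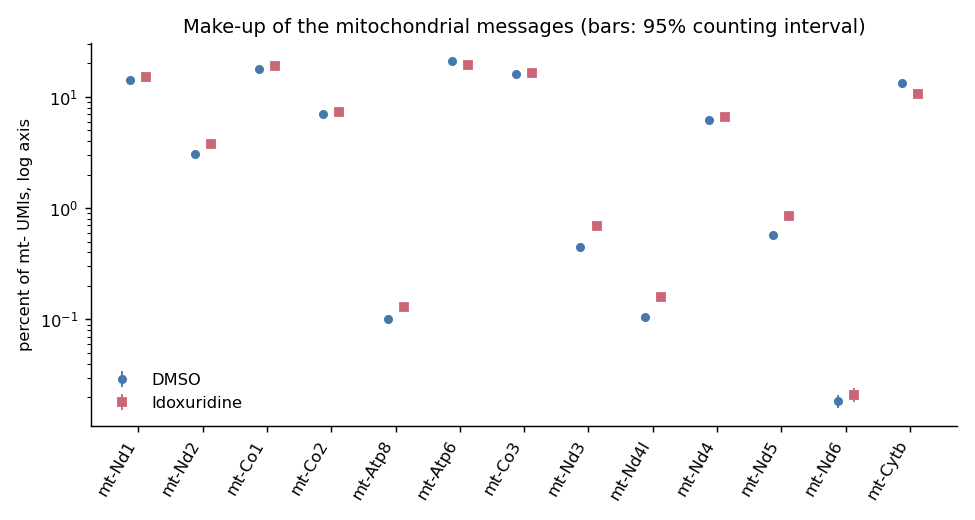
Points give the percent of all mt- UMIs that each of the 13 mitochondrial messages took in the DMSO (circles) and Idoxuridine library (squares), on a log axis, with 95% binomial intervals that are smaller than most symbols. The shares of mt-Cytb and mt-Atp6 are lower in Idoxuridine, and those of mt-Nd3, mt-Nd4l and mt-Nd5 higher.

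The differences in make-up were spread over the cells. After each cell was thinned at random to 24000 UMIs, 758 DMSO and 637 Idoxuridine cells remained, and 51 and 104 shallower cells were left out. The share of mt-Cytb in a cell's mitochondrial UMIs had a median of 13.0% in DMSO (12.90 to 13.22) and 10.5% in Idoxuridine (10.33 to 10.70), and 9.58% of Idoxuridine cells lay above the DMSO median. The share of mt-Nd5 had medians of 0.544% and 0.847%, and 80.2% of Idoxuridine cells lay above the DMSO median. For mt-Nd2 the medians were 3.05% and 3.80%, and again 80.2% lay above. Most Idoxuridine cells thus lay below the DMSO median for mt-Cytb and above it for mt-Nd5 and mt-Nd2, while the ranges overlapped.

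The balance of the 2 genomes was measured as the ratio of mitochondrial to nuclear respiratory chain UMIs. Pooled over cells it was 1.41 in DMSO and 1.56 in Idoxuridine, a difference of 0.15 log2 (0.146 to 0.159). In complex I it went from 1.37 to 1.72 (0.32 log2), in complex IV from 2.83 to 2.96 (0.06) and in complex V from 0.763 to 0.805 (0.08). In complex III it went the other way, from 1.72 to 1.50 (-0.20). Complex III has mt-Cytb as its 1 mitochondrial message, and with mt-Cytb left out the pooled difference over all complexes was 0.20.

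Per cell, the median balance was 0.45 log2 in DMSO (0.42 to 0.47) and 0.63 log2 in Idoxuridine (0.60 to 0.66), and 73.8% of Idoxuridine cells (70.2 to 77.2) lay above the DMSO median. For complex I alone the medians were 0.43 and 0.77, with 85.9% above. For complex III they were 0.71 and 0.54, with 38.5% above. The central 90% of cells spanned 0.0026 to 0.92 log2 in DMSO and 0.14 to 1.07 in Idoxuridine, so the distributions overlapped widely and were shifted rather than widened.

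**Figure D5:**
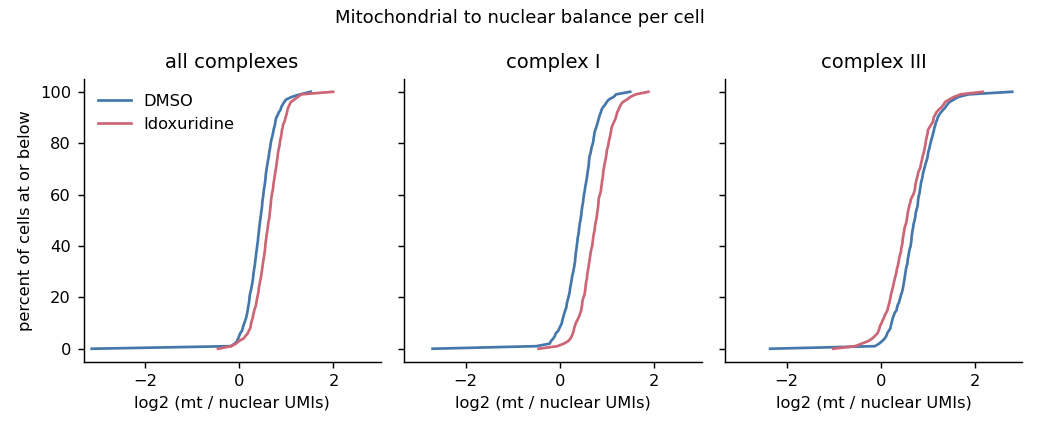
Curves give the percent of cells whose log2 ratio of mitochondrial to nuclear UMIs, at 24000 UMIs per cell, lies at or below the value on the x axis, for all complexes, complex I and complex III. The Idoxuridine curve lies to the right for all complexes (median 0.63 against 0.45) and for complex I, and to the left for complex III.

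Other quantities also differed between the libraries, and some of them correlated with the balance. The nuclear-retained RNAs, by level mostly Malat1, had a median of 75 UMIs per thinned cell in DMSO and 116 in Idoxuridine. Across cells of 1 library their Spearman correlation with the balance was 0.23 in DMSO (758 cells) and 0.31 in Idoxuridine (637 cells). Correlations across cells are descriptions here, since the cells of a library share its preparation and the fixed depth. A list of p53 targets, with medians of 47 and 66 UMIs per thinned cell, had 0.31 and 0.24 with the balance, and the ribosomal protein genes 0.30 and 0.20. Genes of import and carriers had -0.19 and -0.29, those of the tricarboxylic acid cycle and pyruvate entry -0.21 and -0.24, those of S phase -0.21 and -0.19, and those of mitochondrial RNA processing -0.18 and -0.14. The naive pluripotency genes, with medians of 149 and 104 UMIs per thinned cell, had 0.05 and -0.05 with the balance. Genes of G2/M had 0.01 and -0.03, and other assembly factors 0.07 and -0.01. The part of these lists in the difference in balance was not tested. In the shared middle range of nuclear-retained RNA (pooled 10th to 90th percentile), 663 and 577 cells, the pooled difference in balance was 0.13 in place of 0.15. The libraries still differed there in the median share of these RNAs, 0.344% in DMSO and 0.464% in Idoxuridine. Before the selection the medians were 0.319% and 0.508%. Among cells in the middle range of UMIs, 400 and 374 cells, the pooled difference in balance was 0.18. The summed nuclear members had a Spearman correlation of 0.40 (DMSO) and 0.33 (Idoxuridine) with the UMIs of a cell before thinning, and the balance one of -0.10 and -0.25.

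Between cells, the sum of the 13 mitochondrial messages varied more than that of the 86 nuclear ones in both libraries, and the gap per gene was smaller. The summed mitochondrial UMIs per thinned cell had a median of 610 in DMSO and 668 in Idoxuridine, with a coefficient of variation beyond counting of 23.3% and 21.6%. The summed nuclear members had medians of 449 and 439 UMIs, and a coefficient of variation of 8.22% and 8.72%. Gene by gene, the median coefficient of variation beyond counting was 26.8% over 12 mitochondrial and 18.8% over 85 nuclear members in DMSO, and 24.8% and 21.6% in Idoxuridine. The mitochondrial sum thus varied by similar amounts in both libraries, and so did the nuclear sum. The DMSO minimum of 48 mitochondrial UMIs came from 1 cell, and the lowest Idoxuridine cell had 299.

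The Fano factor, the variance of UMIs per thinned cell over their mean, is 1 where counting alone sets the spread, and was computed for the 97 members whose thinned mean reached 0.25 in both libraries. In DMSO the median was 3.99 over 12 mitochondrial and 1.12 over 85 nuclear members, and 8 of the 9 members above 2 were mitochondrial. The most variable message was mt-Atp6 (12.2 in DMSO and 10.2 in Idoxuridine), and Atp5b was the most variable nuclear one (2.91 and 2.93). The Fano factor grows with the mean where cells truly differ, so these values also follow abundance. The median log2 Fano ratio, Idoxuridine over DMSO, was 0.06 over the nuclear members, of which 63 of 85 (74.1%) were above 0, beside 79.3% of all genes, and -0.02 over the mitochondrial ones, of which 5 of 12 were, beside 0.08 over all 7354 genes with a value. At least 0.25 log2 higher were 6 of 97 members (6.19%), where 10.8% of all genes were, and 2 (2.06%) were as much lower, where 0.313% were.

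Uqcrfs1, the Rieske protein, had the highest Fano ratio of the members, from 1.15 to 1.46 (0.34 log2) at a lower mean. The other 5 were Ndufaf4, an assembly factor (1.10 to 1.37), mt-Nd1 (4.86 to 6.06), Atp5c1 (1.38 to 1.71), Cox7c (1.33 to 1.62) and Cox7a1 (1.16 to 1.40). The 2 lower ones were mt-Co3 (10.1 to 8.02, -0.33) and mt-Atp6 (-0.26). Next below in the order came Ndufv2 (1.23 to 1.11), Sdhb (1.21 to 1.10) and mt-Nd4 (3.70 to 3.40). These ratios rest strongly on which cells enter. Among cells in the middle range of UMIs 21 members in place of 6 passed 0.25 log2 upward, and the mitochondrial median was 0.36. With the cells above 2 times the median UMIs of their library left out, 11 members passed upward, and without those above 5% mt- UMIs 10 did.

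Correlations between single members are lowered by counting noise where messages are sparse, as are most nuclear ones and also mt-Nd3 and mt-Nd5. Over 10 mitochondrial genes whose thinned mean was 1 or more, the 45 pairs had a median Pearson correlation across cells of 0.44 in DMSO and 0.50 in Idoxuridine. The 2775 pairs of nuclear members had medians of 0.04 and 0.03, and the 750 mixed pairs 0.09 and 0.06, values at which sparse counts carry no finding. Among the mitochondrial messages mt-Nd5 had the lowest median correlation with the others, 0.21 in both libraries, while mt-Atp6 had 0.70 and 0.69. In DMSO mt-Nd5 was at 154 CPM and mt-Atp6 at 5658 CPM. The part of counting noise in the low value of mt-Nd5 was not tested. Summed by complex, the mitochondrial subunits had Pearson correlations of 0.63 to 0.81 in DMSO and 0.58 to 0.79 in Idoxuridine, and Spearman correlations of 0.46 to 0.72 and 0.48 to 0.73.

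Summed nuclear subunits of different complexes had Pearson correlations of -0.05 to 0.51 in DMSO and -0.04 to 0.34 in Idoxuridine. The highest of the 10 pairs was complexes I and IV in both libraries. Complex II had -0.05 to 0.14 and -0.04 to 0.16 with the other 4, a range that in DMSO includes the value of complexes IV and V (0.12). Its 4 messages gave a median of 21 UMIs per thinned cell in DMSO and 18 in Idoxuridine, fewer than any other nuclear set, and the part of counting noise in its low values was not tested. The mitochondrial and nuclear sums had a Pearson correlation of 0.36 in DMSO and 0.24 in Idoxuridine (Spearman 0.24 and 0.18), and within a complex Pearson's value ranged from complex IV (0.54 and 0.44) to complex V (-0.02 and -0.06). Complex IV was also the nuclear set closest to the ribosomal protein genes (Pearson 0.64 and 0.57, Spearman 0.49 and 0.49), with Pearson values for complex I at 0.41 and 0.29, complex II at -0.13 and -0.14, complex III at 0.11 and 0.18 and complex V at 0.02 and 0.12. The mitochondrial sum had 0.60 and 0.55 (Spearman 0.45 and 0.40) with the ribosomal protein genes, whose part in these correlations was not tested.

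In 9 further lists of genes that serve the respiratory chain, 207 genes reached the minimum, of which 14 (beside 18.8% of all genes) were at least 0.5 log2 higher and 19 (beside 4.22%) at least 0.5 log2 lower, with a median ratio of -0.09. Of 17 genes for transcription and replication of mitochondrial DNA 1 was higher and 2 were lower. Top1mt, the mitochondrial topoisomerase, was at 7.14 CPM in DMSO and 13.4 CPM in Idoxuridine. Tfb1m, which methylates mitochondrial ribosomal RNA, was at 9.56 and 5.45 CPM, Mterf2, a DNA-binding protein of the mitochondrial termination factor family, at 12.1 and 6.83 CPM, and the helicase Peo1 at 15.1 and 20.6 CPM without passing 0.5. Of 24 genes for mitochondrial RNA processing and stability 0 were higher and 3 were lower. These were Fastkd2, an RNA-binding protein (76.0 and 43.3 CPM), Rexo2, an oligoribonuclease (154 and 91.8 CPM), and Hsd17b10, a subunit of mitochondrial RNase P (189 and 114 CPM).

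Of 15 nuclear regulators of respiratory genes 3 were higher, Ppard (10.3 and 21.8 CPM), Tfeb (40.2 and 69.1 CPM) and Esrra (14.1 and 24.0 CPM), and 1 was lower, the coactivator Ppargc1b (8.61 and 5.03 CPM). Of 42 other assembly factors 5 were higher, among them Acad9, which acts on complex I (23.7 and 44.8 CPM), Uqcc2, on complex III (23.2 and 42.7 CPM), and Tmem70, on complex V (30.2 and 47.9 CPM), and 4 were lower, among them Cox19, on complex IV (34.1 and 22.7 CPM). Of 20 genes for electron carriers and coenzyme Q, 2 were higher, Adck4 (7.28 and 13.8 CPM) and Coq10a (8.41 and 13.6 CPM), and Coq3 was lower (28.6 and 19.2 CPM). Of 22 genes of the tricarboxylic acid cycle and pyruvate entry 0 were higher and 2 were lower, Fh1, the fumarase that follows complex II in the cycle (147 and 104 CPM), and Pdk1, a kinase that restrains pyruvate dehydrogenase (72.1 and 45.7 CPM).

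Of 38 genes of the outer membrane, import and carriers 1 was higher, Minos1 (72.4 and 107 CPM), and 5 were lower, among them Chchd10 (395 and 227 CPM), Chchd6, which like Minos1 belongs to the complex at cristae junctions (63.5 and 36.8 CPM), and Timm23, the import channel (6.23 and 3.55 CPM). Of 17 stress response genes 1 was higher, Gdf15, a secreted stress signal (20.7 and 36.0 CPM), and 0 were lower. Of 12 antioxidant enzymes Txnrd2 was higher (8.51 and 16.9 CPM) and Sod2, the superoxide dismutase of the matrix, was lower (455 and 302 CPM).

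Promoters are shown for 3 members that hold a known motif and lie on both sides of 0, Sdhd of complex II (-0.25), Ndufa11 of complex I (81.8 and 96.4 CPM, 0.24) and Uqcr11 of complex III (0.39). Each is the 250 bases before the gene's start in RefSeq (GRCm38.p6), read along the gene. Capitals mark a match to the NRF1 motif, named for a factor known to act on respiratory genes, or to the ETS motif CCGGAAG, which overlaps it in none of the 3, on either strand.
Sdhd (chr9:50603850-50604099, minus strand): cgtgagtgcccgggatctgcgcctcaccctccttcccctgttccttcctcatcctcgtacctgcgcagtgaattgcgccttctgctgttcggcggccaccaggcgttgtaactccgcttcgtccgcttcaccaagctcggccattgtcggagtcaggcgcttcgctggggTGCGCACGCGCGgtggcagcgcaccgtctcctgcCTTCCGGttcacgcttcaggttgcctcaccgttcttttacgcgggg
Ndufa11 (chr17:56717512-56717761, plus strand): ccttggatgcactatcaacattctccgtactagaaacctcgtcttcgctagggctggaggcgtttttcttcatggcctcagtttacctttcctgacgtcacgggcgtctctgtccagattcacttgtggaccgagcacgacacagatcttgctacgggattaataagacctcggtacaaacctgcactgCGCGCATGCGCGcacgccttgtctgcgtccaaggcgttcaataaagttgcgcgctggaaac
Uqcr11 (chr10:80406822-80407071, minus strand): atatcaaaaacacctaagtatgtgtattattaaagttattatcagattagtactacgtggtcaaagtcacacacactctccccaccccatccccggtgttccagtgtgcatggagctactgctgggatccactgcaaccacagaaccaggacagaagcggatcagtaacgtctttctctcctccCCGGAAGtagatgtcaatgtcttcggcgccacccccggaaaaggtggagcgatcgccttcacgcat
Sdhd holds both motifs, Ndufa11 the NRF1 motif and Uqcr11 the ETS motif. Since the 3 were picked to lie on both sides of 0, nothing is read from their ratios. Promoter windows of 300 bases (250 before and 50 after the start) were found for 74 of the 86 nuclear members, 80 windows in all. The NRF1 motif was in 8.75% of these, in 1.27% of all 32851 mouse windows and in 3.10% of the windows of genes at the UMI minimum. The ETS motif was in 21.3%, 8.86% and 19.3%, and the YY1 motif AAGATGG in 16.3%, 6.34% and 7.57%, in the same order. The 7 members with the NRF1 motif had a median log2 ratio of -0.06 and the other matched members one of 0.01. For the ETS motif the medians were 0.07 with it (17 members) and -0.02 without, and for YY1 0.06 with it (12 members) and -0.0011 without. A match describes letters and not binding.

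The nuclear members lie on 19 chromosomes, with at most 8 on any of them, and 3 of the 86 are on the X. Counts can be uncertain where a near copy exists. The last 300 bases of 34 of the 99 members matched another annotated gene over at least 100 bases at 95% identity or more. For 4 members, Atp5h, Atp5l, Cox5b and Ndufaf7, a matched gene had UMIs of its own in the table. The matches of Ndufaf7 were stretches shared with 32 genes, among them Malat1 and Mdm2, and not copies of the gene. The strand setting of the counting was not given in the sources used here, and 33 members overlap a gene on the other strand and 19 one on the same strand.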

How the data were processed

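Single cells of mouse E14 embryonic stem cells were profiled with 10x 3′ V2 chemistry and sequenced on an Illumina HiSeq, per the labels' protocols, with 1 DMSO and 1 Idoxuridine library, grouped by the treatment label. Per the submitters' processing notes Cell Ranger 2, Seurat and the build mm10 were used, with no step assigned to any of them. How cells were called and which annotation release was used is not given in the sources used here. The deposited tables hold raw UMI counts for each gene in each cell, as whole numbers. All deposited barcodes were taken as cells (811 and 742), except those above 10% mt- UMIs. No doublet caller was run.

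UMIs were summed over 40777243 and 30440621 UMIs and scaled to 1000000 (CPM), so 1 UMI is worth 0.0245 CPM in DMSO. With 1 library per group no test was possible, and cells were not taken as replicates. Levels were counted at 0.5 and at 0.25 log2 with separate exact Poisson 95% intervals. Fano factors used the exact expectation of thinning each cell to 24000 UMIs, which is the pooled 10th percentile of UMIs per cell rounded down to a multiple of 500. Balance, shares per cell and correlations used 1 seeded random thinning. Medians over cells have order-statistic intervals and shares of cells have binomial ones, and both treat the cells of 1 library as independent. The pooled difference in balance has a normal approximation to its counting interval. The level and spread calculations were tested on simulated data. Scalings came from edgeR 4.0.16 (TMM) and DESeq2 1.42.0 (median of ratios) in R 4.3.3, and other steps used Python 3.11.15, numpy 2.4.6, scipy 1.17.1 and pandas 2.3.3. Gene positions and lengths are from GENCODE M21, where 27722 of 27998 gene identifiers (99.0%) and all 99 members were found, and promoter windows are from RefSeq, matched by symbol or unique synonym.

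The members, lists and rules were chosen with earlier results of these data known. The text names every mt- gene, the most and least abundant nuclear member of each complex, the 8 highest and 8 lowest level ratios, the 5 highest and 5 lowest Fano ratios, all isoform genes, the 3 symbols on each side of the UMI minimum, and up to 4 genes of each other list by size of ratio. Some members with a distinct role were named beside them after their values were seen. Promoters were first searched with a shorter form of the NRF1 motif and a longer form of the YY1 motif. The forms used here, and with them the 3 promoters shown, replaced these after the first results had been seen, and the first forms' results are not reported here. The alternatives concern scaling, UMI and mt- limits, depth and cell ranges.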

Additional observations from a re-analysis of the deposited data

How the results depend on the processing

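No paired analysis was possible because each treatment had 1 library and no replicate numbers. Of all 99 members, 33 changed direction under at least 1 scaling and 7 under a cell selection. The median log2 ratio of the mitochondrial members, 0.20, was 0.12 with TMM, 0.11 with median of ratios and -0.010 with TMM over all genes, and that of the nuclear members was -0.085, -0.092 and -0.21. Members at least 0.5 log2 higher numbered 3 in place of 7 with TMM over all genes, and those at least 0.5 log2 lower numbered 2, 2 and 9 in place of 1 with these 3 scalings in the order given. At 0.25 log2, 13, 12 and 7 members in place of 21 were higher (13.1%, 12.1% and 7.07%, beside 25.2%, 24.6% and 18.3% of all genes) and 28, 29 and 37 in place of 12 were lower (28.3%, 29.3% and 37.4%, beside 19.7%, 20.4% and 32.6%). The split of higher against lower members at 0.5 log2 was 5 to 2 with TMM, 5 to 2 with median of ratios and 3 to 9 with TMM over all genes. The median of the 9 further lists was -0.17 with TMM and -0.18 with median of ratios in place of -0.09. The pooled difference in balance, 0.153, was 0.144 without the mt- limit, 0.166 without cells above 5% mt- UMIs, 0.172 without cells above 2 times the median UMIs, 0.127 in the middle range of nuclear-retained RNA, 0.184 in the middle range of UMIs, 0.143 without complex II and 0.198 without mt-Cytb. The difference of medians per cell, 0.18, was 0.23 without mt-Cytb. Both kept their sign in all of these. The median log2 Fano ratio of the mitochondrial members, -0.02, was -1.61 without the mt- limit, 0.36 in the middle range of UMIs and -0.43 without thinning. That of the nuclear members, 0.06, was 0.081 without cells above 5% mt- UMIs, 0.088 in the middle range of UMIs and -0.20 without thinning. Members with a Fano factor at least 0.25 log2 higher numbered 10 without cells above 5% mt- UMIs, 11 without cells above 2 times the median UMIs, 21 in the middle range of UMIs, 1 without thinning and 2 at 12000 UMIs, in place of 6. The cause of these differences was not tested. The middle range of UMIs, a lower limit of 1% mt- UMIs, TMM over all genes, the length comparison and the run without mt-Cytb were chosen after seeing the data. The spread between cultures is not known from 1 library per group, and the counting interval of mt-Nd6, near the UMI minimum, includes 0.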
